A study of Mus musculus with 12 samples.

Results

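Citrate is both a fuel of the mitochondrial citric acid cycle and, in the prostate, a secreted product. Citrate synthase joins acetyl-CoA to oxaloacetate in mitochondria, aconitase turns citrate into isocitrate, and isocitrate dehydrogenases oxidise isocitrate. Citrate that is not oxidised can leave the mitochondrion through the citrate carrier and can then be cut back to acetyl-CoA for lipid synthesis or be released. Secretory luminal cells of the prostate are known for slowing the aconitase step with zinc, for drawing oxaloacetate from aspartate, and for releasing citrate into prostatic fluid.

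The expression of 9 genes of this chemistry, out of 24054 in the deposited tables, was examined in sorted mouse prostate cells. They were taken by name for their biochemical role: Cs (citrate synthase), Pcx (pyruvate carboxylase) and Got2 (mitochondrial aspartate aminotransferase), which supply citrate or its oxaloacetate; Aco1 (cytosolic aconitase), Idh3a, Idh2 and Idh1 (isocitrate dehydrogenases), which use it; and Slc25a1 (mitochondrial citrate carrier) and Acly (ATP citrate lyase), which export and cleave it. By RefSeq on GRCm38.p6, the build behind mm10, these protein-coding genes lie on chromosomes 10 (Cs, 128337727 to 128362482), 19 (Pcx, 4510472 to 4621752), 8 (Got2, 95864133 to 95888401), 4 (Aco1, 40143265 to 40199009), 9 (Idh3a, 54586511 to 54604662), 7 (Idh2, 80094845 to 80118608), 1 (Idh1, 65158616 to 65186479), 16 (Slc25a1, 17925211 to 17928219) and 11 (Acly, 100476352 to 100528000). All 9 passed the filter on low counts and entered the tests over 14201 genes. The samples were basal and luminal epithelial cells of C57BL/6 mouse prostate at 3 and at 24 months, with no other genotype or treatment named. Each of the 4 groups had 3 libraries, each library pooled the cells of 2 mice, and no source used here states the sorting gates.

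Counted reads per library ranged from 20012691 to 27663450, and 11706 to 13744 genes were detected. By an estimate from genes with reads in only 1 library of a group, 1 original fragment gave 15.7 to 74 reads. The numbers of distinct fragments are therefore far lower than the reads. They were 373830 to 564923 in basal libraries at 3 months and 677884 to 1470069 in basal libraries at 24 months. Luminal libraries had 744442 to 870117 at 3 months and 543503 to 728632 at 24 months. The sorted fractions carried their markers. The summed level of 9 basal markers was 16987 to 20207 normalized CPM (read counts scaled to a common library total) in basal and 642 to 1349 CPM in luminal libraries, and Trp63, the basal cell transcription factor, had at most 1 read in any luminal library. The summed level of 9 luminal markers was 5046 to 6291 CPM in basal and 14844 to 18924 CPM in luminal libraries, so luminal marker RNA was present in basal libraries too. Markers of other cell types also differed between the fractions. Summed over 8 fibroblast markers, basal libraries had 1233 to 1621 CPM and luminal ones 49.7 to 391.0 CPM, with Lum at 0 in basal libraries at 24 months. Most of the basal sum was Dcn, with basal means of 1367.9 and 1248.0 CPM at 3 and 24 months. Its luminal means were 82.1 and 54.4 CPM. At 3 months the other fibroblast markers had higher means in luminal libraries (Col1a1 63.7 against 46.4 CPM), except Pdgfrb. At 24 months they went either way (luminal against basal, Col1a1 6.62 and 5.99 CPM, Col3a1 9.21 and 12.1 CPM). Summed over 6 endothelial markers, basal and luminal libraries had 29.7 to 77.4 and 1.66 to 10.1 CPM, with Pecam1 and Tek at 0 in luminal libraries at 3 months and Kdr at 24 months. Summed over 7 smooth muscle markers, basal and luminal libraries had 259.8 to 293.5 and 82.8 to 131.9 CPM at 3 months and 62.5 to 144.1 and 13.2 to 67.9 CPM at 24 months. The part of these cells in the differences between basal and luminal cells was not tested. A list of 6 seminal vesicle secretory genes took 15.1% to 17.5% of the reads of luminal libraries at 3 months and 14.0% to 19.9% at 24 months, against at most 0.203% in basal libraries. Scaling therefore matters here: TMM-normalized CPM adjust for such abundant products, while TPM, which compare genes within a library per length, do not. Within this list luminal replicate 2 of 24 months stood apart for Svs4, at 21987.3 CPM against 1606.5 and 3545.8 CPM in replicates 1 and 3. For Svs2 it did not (101769.8 against 95838.1 and 105510.2 CPM).

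At 3 months, luminal cells had more RNA of genes that make, export and cleave citrate and of the NADP-dependent isocitrate dehydrogenases. Pyruvate carboxylase was 3.34-fold, Idh1 2.80-fold, Acly 2.45-fold, Idh2 1.86-fold, Slc25a1 1.66-fold and Cs 1.31-fold higher in luminal than in basal cells. Got2 and Aco1 were not called, and Idh3a, of the NAD-dependent enzyme of the cycle, was the only 1 of the 9 to be called lower, at 24 months. Of the 9 genes, 6 were called higher and 0 lower at 3 months (quasi-likelihood test of edgeR, p adjusted over all genes by Benjamini-Hochberg and under 0.05). Among all tested genes 19.0% were called higher and 18.6% lower, and among genes with a mean of at least 10 CPM 25.9% and 29.9%. At 24 months 4 of the 9 were called higher and 1 lower, against 15.7% higher and 19.7% lower among all tested genes (23.0% and 31.8% of genes with at least 10 CPM). The median log2 fold change of the 9 was 0.73 at 3 months and 0.58 at 24 months, beside 0.19 and 0.00 over all tested genes. With log2(TPM + 1), which is not adjusted for the secretory products, 3 of the 9 were called higher (Pcx, Acly and Idh1) and 2 lower (Idh3a and Got2) at 3 months by limma, and over all genes 2237 were called higher and 4044 lower in place of 2704 and 2637. In bulk libraries such as these, fewer cells of a type and less RNA per cell cannot be told apart.

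**Figure D1:**
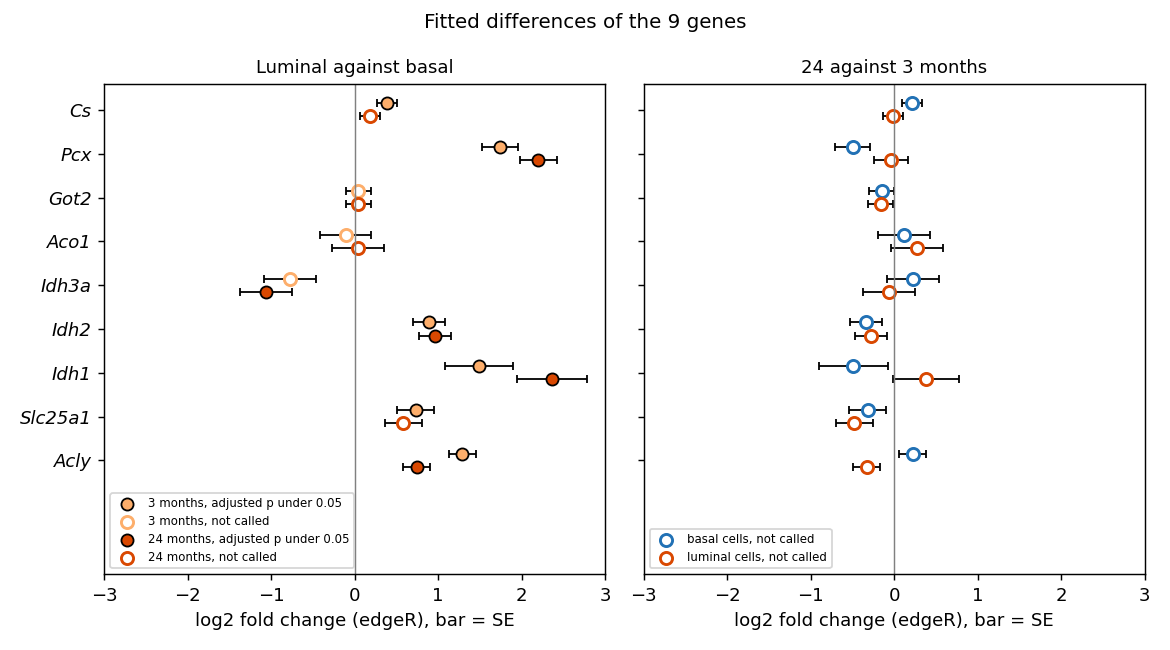
Fitted log2 fold changes of the 9 genes with their standard errors: luminal against basal cells at 3 and 24 months (left) and 24 against 3 months in basal and luminal cells (right). Filled points passed an adjusted p of 0.05. Pcx, Idh1, Acly and Idh2 are filled to the right of 0 at both ages, Idh3a is filled to the left at 24 months, and no point of the age comparison is filled.

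Since several of these genes were higher in luminal cells together, windows of 250 bases upstream of RefSeq starts (build GRCm38.p6) are shown. These windows are of Pcx and Acly, with the smallest p of these genes at 3 months, and of Got2, called at neither age. They lie at chr19:4510222-4510471 on the plus strand (Pcx, the first of its 2 listed starts), chr11:100528001-100528250 on the minus strand (Acly) and chr8:95888402-95888651 on the minus strand (Got2). Each is written 5′ to 3′ in the direction of the gene, with capitals for any match, on either strand, to the E-box CACGTG, the Sp box GGGCGG, the CCAAT box, the androgen receptor half-site AGAACA, the sterol element TCACNCCAC, the estrogen-related receptor half-site AAGGTCA, the NRF1 core GCGCATGC or the ETS site CCGGAAG.
Pcx: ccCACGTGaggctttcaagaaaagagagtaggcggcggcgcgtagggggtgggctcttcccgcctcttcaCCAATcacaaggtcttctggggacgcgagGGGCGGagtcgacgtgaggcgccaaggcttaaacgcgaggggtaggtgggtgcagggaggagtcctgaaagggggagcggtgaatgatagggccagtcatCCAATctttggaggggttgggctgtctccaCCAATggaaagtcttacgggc
Acly: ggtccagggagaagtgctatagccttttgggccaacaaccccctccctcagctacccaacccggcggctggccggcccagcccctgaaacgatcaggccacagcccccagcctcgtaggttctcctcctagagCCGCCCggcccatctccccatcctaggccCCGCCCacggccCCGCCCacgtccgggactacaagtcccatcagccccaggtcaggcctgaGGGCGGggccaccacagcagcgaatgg
Got2: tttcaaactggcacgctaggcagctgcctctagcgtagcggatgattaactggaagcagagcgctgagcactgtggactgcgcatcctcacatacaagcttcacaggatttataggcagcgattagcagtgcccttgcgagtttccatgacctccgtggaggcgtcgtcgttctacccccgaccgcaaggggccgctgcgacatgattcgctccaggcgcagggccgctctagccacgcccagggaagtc

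The Pcx window shown holds 1 E-box, 1 Sp box and 3 CCAAT boxes, the Acly window 4 Sp boxes, and the Got2 window none of the 8 motifs. The window of the second Pcx start (chr19:4594069-4594318, not shown) holds none of them either. Aco1, like Got2 called at neither age, has 4 matches, to the Sp box and the androgen receptor half-site. The windows shown therefore do not separate called from uncalled genes. Promoters were matched for 8 of the 9 genes, with 2 windows each for Idh1 and Pcx, so that 10 windows were searched. An Sp box was in 8 of the 10 windows (all of these genes but Got2), a CCAAT box in 5 (Cs, Idh1, Idh2, Slc25a1 and Pcx), an E-box in 2 (Slc25a1 and Pcx) and the androgen receptor half-site in 2 (Aco1 and Idh1). Over all 32851 promoters of the same length, the Sp box occurred in 32.7%, the CCAAT box in 33.8%, the E-box in 6.02% and the half-site in 16.1%. The GC content of the members' windows was 55.2% to 70.0%, above the median of 52.4% over all promoters, and GC-rich motifs such as the Sp box occur more often in such sequence. None held the sterol element (1.05% of all promoters), the AAGGTCA half-site (4.08%), the NRF1 core (2.26%) or the ETS site (6.91%). A match is a string of letters and no evidence of binding.

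Cs, the enzyme that makes citrate, was at 130.2, 127.5 and 131.4 CPM in the 3 basal libraries at 3 months and at 157.9, 169.7 and 183.7 CPM in the luminal ones. At 24 months it was at 137.8, 155.8 and 155.8 CPM in basal and 169.7, 182.1 and 155.8 CPM in luminal libraries. All luminal libraries were above all basal ones at 3 months, while at 24 months the ranges met. The log2 fold change was 0.39 ± 0.12 (SE) at 3 months (adjusted p = 0.0144) and 0.18 ± 0.12 at 24 months (adjusted p = 0.266). This small difference was not called without luminal replicate 2 (0.101) or 3 (0.0691) of 3 months or without basal replicate 1 (0.0584) or 2 (0.0652) of 24 months, nor on fragment-equivalent counts (0.0532), and it was -0.10 on unscaled log2(TPM + 1).

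Pcx makes oxaloacetate, the partner of acetyl-CoA in citrate synthesis, from pyruvate. It was at 22.4, 19.9 and 18.0 CPM in basal and at 70.5, 61.1 and 69.6 CPM in luminal libraries at 3 months. At 24 months the values were 11, 17.0 and 14.7 CPM in basal and 69.9, 60.0 and 66.3 CPM in luminal libraries. No basal library came near a luminal one at either age. The log2 fold changes were 1.74 ± 0.21 at 3 months (adjusted p = 1.07e-05) and 2.20 ± 0.22 at 24 months (4.6-fold, adjusted p = 1.43e-06), and Pcx was called in all 20 alternative settings at both ages.

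Got2 forms oxaloacetate from aspartate in mitochondria and was the most abundant of the 9 per length. It was at 204.2, 178.6 and 168.1 CPM in basal and 227.3, 168.1 and 172.1 CPM in luminal libraries at 3 months. At 24 months the 3 values were 148.5, 187.3 and 160.1 CPM in basal and 162.1, 157.7 and 189.2 CPM in luminal libraries. The groups overlapped at both ages, with log2 fold changes of 0.04 ± 0.15 at 3 months (adjusted p = 0.863) and 0.04 ± 0.15 at 24 months (adjusted p = 0.884). The direction depended on the scaling: on unscaled log2(TPM + 1) the difference at 3 months was -0.46 (limma adjusted p = 0.0375).

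Aco1 is the cytosolic aconitase, which doubles as an iron-regulated RNA-binding protein. It was at 24.1, 48.0 and 21.0 CPM in basal and 29.8, 23.2 and 33.2 CPM in luminal libraries at 3 months. In mice of 24 months it was at 28.6, 34.9 and 37.7 CPM in basal and 35.4, 28.1 and 40.3 CPM in luminal libraries. Basal replicate 2 of 3 months stood above the other 11 libraries, and the groups overlapped at both ages. The fitted log2 difference was -0.11 ± 0.31 at 3 months (adjusted p = 0.827) and 0.04 ± 0.31 at 24 months (adjusted p = 0.950), and without basal replicate 2 the difference at 3 months was 0.35.

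Idh3a encodes the catalytic alpha subunit of the NAD-dependent isocitrate dehydrogenase, the enzyme that carries isocitrate on through the cycle. It was at 29.0, 41.2 and 25.5 CPM in basal and 14.8, 16.7 and 24.4 CPM in luminal libraries at 3 months. Values at 24 months were 33.5, 39.5 and 38.7 CPM in basal and 23.3, 13.1 and 17.2 CPM in luminal libraries. Every luminal library was below every basal library of the same age. The log2 fold change, luminal against basal, was -0.78 ± 0.31 at 3 months (adjusted p = 0.0643, not called) and -1.06 ± 0.31 at 24 months (2.08-fold lower, adjusted p = 0.0151). The 24-month call was lost without basal replicate 2 (0.0573) or luminal replicate 2 (0.0867). The 3-month difference was called on unscaled TPM (limma adjusted p = 0.00437), TMM-scaled TPM (0.0347) and fragment-equivalent counts (0.0163), and without basal replicate 3 (0.0458) or luminal replicate 3 (0.0368).

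Idh2, the mitochondrial NADP-dependent enzyme, was at 37.4, 47.5 and 37.9 CPM in basal and 79.8, 68.6 and 79.6 CPM in luminal libraries at 3 months. Those of 24 months gave 30.8, 31.2 and 35.0 CPM in basal and 49.3, 63.1 and 75.9 CPM in luminal libraries. Luminal libraries lay above basal ones at both ages. The difference on the log2 scale was 0.89 ± 0.19 at 3 months (adjusted p = 0.00182) and 0.96 ± 0.19 at 24 months (1.94-fold, adjusted p = 0.00112), and the 3-month call was lost on unscaled TPM alone (limma adjusted p = 0.0758).

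Idh1 is the cytosolic counterpart of Idh2 and a source of cytosolic NADPH. It was at 4.84, 10.4 and 9.25 CPM in basal and 24.1, 24.7 and 19.8 CPM in luminal libraries at 3 months. The 24-month values were 3.63, 5.83 and 7.91 CPM in basal and 24.2, 34.2 and 31 CPM in luminal libraries. The lowest luminal value was above the highest basal value at both ages. The log2 fold change was 1.49 ± 0.41 at 3 months (adjusted p = 0.0101) and 2.36 ± 0.42 at 24 months (5.14-fold, adjusted p = 0.000434), called in all 20 alternative settings. The basal levels rest on an estimated 1.84 to 6.0 fragments per library at 3 months and 3.81 to 10.3 at 24 months.

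**Figure D2:**
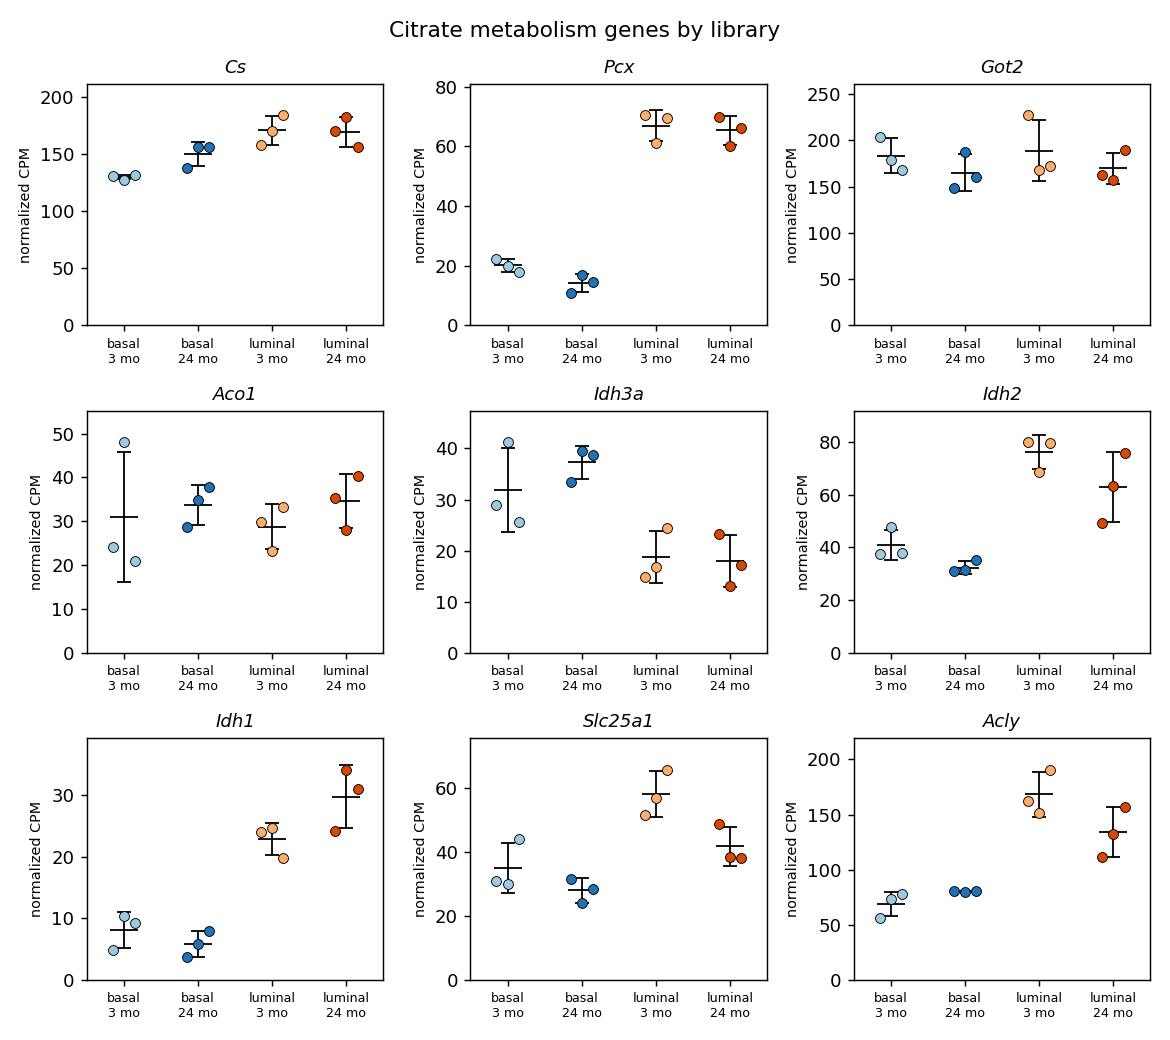
Normalized CPM of the 9 genes in each of the 12 libraries, by cell type and age; points are libraries, the horizontal bar is the mean and the error bar the SD over 3 libraries. For Pcx, Idh1, Idh2, Slc25a1 and Acly the luminal points lie above the basal points of the same age, for Idh3a below, and for Got2 and Aco1 they overlap.

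Slc25a1 carries citrate out of mitochondria in exchange for malate. It was at 30.9, 29.9 and 44.0 CPM in basal and 51.4, 56.9 and 65.7 CPM in luminal libraries at 3 months. For mice aged 24 months the values were 31.5, 23.9 and 28.5 CPM in basal and 48.7, 38.4 and 38.1 CPM in luminal libraries. The groups were apart at both ages. Fitted log2 fold changes were 0.73 ± 0.22 at 3 months (adjusted p = 0.0176) and 0.58 ± 0.22 at 24 months (adjusted p = 0.0578, not called). The call at 3 months was lost without basal replicate 1 (0.0587) or 2 (0.0672) or luminal replicate 2 (0.0695) or 3 (0.0782), and on unscaled TPM (0.373). At 24 months it was called in 7 of 20 alternative settings, DESeq2 among them (adjusted p = 0.0105).

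Acly cuts cytosolic citrate into acetyl-CoA and oxaloacetate, the first step from citrate to fatty acids and sterols. It was at 56.2, 72.9 and 77.5 CPM in basal and 162.6, 151.3 and 190.9 CPM in luminal libraries at 3 months. By 24 months the values were 80.5, 79.4 and 80.8 CPM in basal and 111.9, 132.4 and 157.3 CPM in luminal libraries. The groups were apart at both ages. The fitted log2 difference was 1.29 ± 0.16 at 3 months (adjusted p = 1.42e-05) and 0.74 ± 0.16 at 24 months (1.67-fold, adjusted p = 0.00197), called in all 20 alternative settings.

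None of the 9 genes was called with age: edgeR and DESeq2 each called 0 of 9 in basal cells, 0 of 9 in luminal cells and 0 of 9 for the difference between the 2 age responses. Among all tested genes 1.24%, 1.65% and 0.817% were called in these comparisons, so a count of 0 among 9 is near the background. At an unadjusted p under 0.05 there were 1, 0 and 1 of the 9. The 1 in basal cells was Pcx, whose 3 libraries at 24 months were all below those at 3 months (log2 -0.50 ± 0.21, adjusted p = 0.288). The 1 for the difference of the age responses was Acly. Its mean was 80.2 CPM at 24 and 68.8 CPM at 3 months in basal cells (log2 0.22 ± 0.16, adjusted p = 0.596) and 133.8 and 168.3 CPM in luminal cells (-0.33 ± 0.16, adjusted p = 0.487), a difference of -0.55 ± 0.23 (adjusted p = 0.333). Idh1 had a mean of 29.8 CPM at 24 and 22.9 CPM at 3 months in luminal cells (0.38 ± 0.40, adjusted p = 0.938) and of 5.79 and 8.16 CPM in basal cells (-0.49 ± 0.41, adjusted p = 0.672). Slc25a1 in luminal cells was lower in all 3 libraries at 24 months than in any at 3 months (-0.48 ± 0.22, adjusted p = 0.466). With standard errors of 0.12 to 0.41 on the log2 scale, small age effects on these genes were not detectable with 3 libraries a group.

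Ratios between 2 genes of 1 library do not depend on how the library is scaled, and they were formed from TPM. The ratio of Idh1 to Idh2, cytosolic to mitochondrial NADP-dependent enzyme, was 0.0954, 0.162 and 0.180 in basal and 0.223, 0.265 and 0.184 in luminal libraries at 3 months. At 24 months it was 0.0871, 0.138 and 0.167 in basal and 0.362, 0.400 and 0.301 in luminal libraries. Luminal ratios were above basal ones at both ages, narrowly at 3 months, and those of luminal libraries at 24 months were above those at 3 months.

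The ratio of Cs to Idh3a, the entry of citrate into the cycle against a later oxidative step, was 3.78, 2.61 and 4.34 in basal and 9, 8.55 and 6.34 in luminal libraries at 3 months. At 24 months it was 3.46, 3.32 and 3.40 in basal and 6.15, 11.7 and 7.64 in luminal libraries. Every luminal library had more Cs per Idh3a than every basal library. The ratio of Acly to Cs was 0.273 to 0.373 in the 6 basal libraries and 0.417 to 0.657 in the 6 luminal libraries, again without overlap. The ratio of Slc25a1 to Acly was 1.51, 1.13 and 1.56 in basal libraries at 3 months and 0.665 to 1.19 in the 9 others, which overlapped. These ratios are descriptions of RNA, not of enzyme amounts or of flux, and were not tested.

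**Figure D3:**
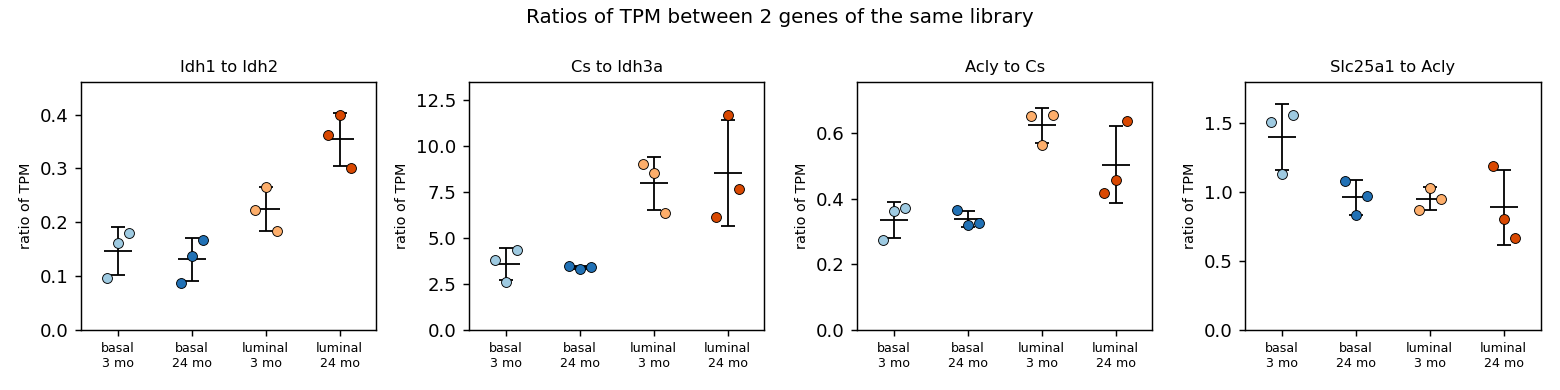
Ratios of TPM between pairs of genes within each library, by cell type and age; points are libraries, bars the mean and SD of 3. The Cs to Idh3a and Acly to Cs ratios of luminal libraries lie above all basal ones (6.15 and more against 4.34 and less, and 0.417 and more against 0.373 and less).

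Per length, Got2 and Cs led the 9 genes in every group. In basal cells at 3 months the mean TPM was 162.7 ± 13 for Got2, 94.6 ± 4.49 for Cs, 51.0 ± 6.30 for Idh2, 44.5 ± 11.8 for Slc25a1, 31.9 ± 5.95 for Acly, 27.5 ± 6.47 for Idh3a, 14.5 ± 6.60 for Aco1, 9.87 ± 0.858 for Pcx and 7.53 ± 2.75 for Idh1 (SD, n = 3). In luminal cells at 3 months it was 119.1 ± 19.8 for Got2, 88.3 ± 7.19 for Cs, 67.4 ± 5.33 for Idh2, 55.1 ± 6.71 for Acly, 52.2 ± 6.80 for Slc25a1, 23.3 ± 1.67 for Pcx, 15 ± 1.71 for Idh1, 11.5 ± 3.18 for Idh3a and 9.58 ± 1.69 for Aco1. The lower end of the order differed between the cell types: Idh1 was the lowest of the 9 by mean in basal cells at both ages, and Idh3a and Aco1 were the lowest 2 in luminal cells at both ages. Neighbours with overlapping libraries were Idh2 and Slc25a1, Slc25a1 and Acly, Acly and Idh3a, Aco1 and Pcx, and Pcx and Idh1 in basal cells at 3 months. In luminal cells at 3 months they were Idh2 and Acly, Acly and Slc25a1, Idh1 and Idh3a, and Idh3a and Aco1.

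At 24 months the mean TPM in basal cells was 128.4 ± 18.7 for Got2, 95.6 ± 9.44 for Cs, 35.3 ± 3.19 for Idh2, 32.2 ± 0.949 for Acly, 30.9 ± 3.45 for Slc25a1, 28.2 ± 3.28 for Idh3a, 13.9 ± 2.28 for Aco1, 6.13 ± 1.46 for Pcx and 4.69 ± 1.82 for Idh1. In luminal cells it was 114.5 ± 19.9 for Got2, 93.1 ± 7.07 for Cs, 59.2 ± 13.6 for Idh2, 46.6 ± 9.28 for Acly, 40.3 ± 9.24 for Slc25a1, 24.4 ± 4.35 for Pcx, 20.6 ± 2.21 for Idh1, 12.5 ± 3.25 for Aco1 and 11.9 ± 4.46 for Idh3a. Idh2, Acly, Slc25a1 and Idh3a overlapped neighbour by neighbour in old basal cells, as did Pcx and Idh1. In old luminal cells Got2 and Cs overlapped, as did Idh2, Acly and Slc25a1, Pcx and Idh1, and Aco1 and Idh3a.

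The genes whose levels followed each of the 9 most closely over the 12 libraries were found by Pearson correlation of log2 CPM among the 6270 genes with a mean of at least 20 CPM. The 12 libraries fall into 2 cell types, so for genes that differ between them r mostly describes that split. Pcx was closest to Prom1 (r = 0.992) and Prss8 (0.991), Acly to Atp13a2 (0.983) and Slc44a2 (0.980), and Idh1 to Ppil2 and Limch1 (both 0.977). Slc25a1 was closest to Calcoco1 (0.973) and Tmem234 (0.930), Idh2 to Chmp3 (0.967) and Gpcpd1 (0.966), Cs to Sympk (0.965) and Ndufa13 (0.940), and Idh3a to Epc1 (0.949) and Zzz3 (0.947). For the 2 genes that did not separate the cell types the closest were weaker, Cops5 (0.803) and Gart (0.793) for Aco1, and Ptgs2 (0.736) and Tmem123 (0.723) for Got2. Among the 9 themselves, Pcx and Idh1 had r = 0.93, Pcx and Idh2 0.92, and Pcx and Idh3a -0.82, while Aco1 and Got2 stayed between -0.32 and 0.36 with every other member.

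Of 15 further genes of the citric acid cycle, luminal cells had 6 called higher and 2 lower at 3 months, beside 19.0% and 18.6% of all tested genes, and 3 and 3 at 24 months, beside 15.7% and 19.7%. The counts at 24 months are near those shares. The median log2 fold change was 0.36 at 3 and 0.16 at 24 months, beside 0.19 and 0.00 over all tested genes. Sdha, the flavoprotein of succinate dehydrogenase, was at 73.8 ± 13.6 CPM in basal and 149.2 ± 13 CPM in luminal cells at 3 months (SD, n = 3; log2 1.01, adjusted p = 8.41e-05) and was higher at 24 months as well (0.86, adjusted p = 0.000399). Dlst, of the 2-oxoglutarate dehydrogenase complex, was at 205.4 ± 37.0 and 87.1 ± 4.40 CPM (-1.24, adjusted p = 2.65e-05; -1.17 at 24 months, adjusted p = 4.92e-05). Of the 2 subunits that assemble with Idh3a, Idh3g was called higher at 3 months and Idh3b at neither age. Idh3g was at 48.9 ± 16.2 and 80.9 ± 4.86 CPM at 3 months (0.73, adjusted p = 0.0101, but 0.246 on unscaled TPM by limma) and at 52.0 ± 4.64 and 75.3 ± 2.32 CPM at 24 months (0.54, adjusted p = 0.0510, called in 10 of 20 alternative settings). Idh3b differed by 0.14 (adjusted p = 0.556) and 0.01 (adjusted p = 0.985), and by -0.34 and -0.21 on unscaled TPM.

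Among genes of pyruvate entry into mitochondria, the largest fitted differences were in kinases that shut off pyruvate dehydrogenase. Of 13 tested genes of 14, 4 were called higher and 1 lower in luminal cells at each age, with medians of 0.24 at 3 and 0.53 at 24 months, beside the same shares and medians of all tested genes as for the cycle. Pdk4 was at 149.9, 63.5 and 137.7 CPM in basal and 5.79, 0.0969 and 2.83 CPM in luminal libraries at 3 months (log2 -5.33, adjusted p = 8.73e-05). Pdk2 was at 3.2, 1.64 and 0.215 CPM in basal and 112.4, 98.9 and 103.4 CPM in luminal libraries at 3 months (adjusted p = 1.66e-06). No fold is given for Pdk2, since its basal mean lies under the 2.28 CPM that 3 fragments over that group would give. At 24 months Pdk4 was at 252.3 ± 11.9 and 3.14 ± 2.57 CPM (adjusted p = 2.70e-05) and Pdk2 at 3.69 ± 1.40 and 70.6 ± 8.98 CPM (4.26, adjusted p = 2.20e-05). Basal and luminal libraries were apart for both kinases at both ages. Pck2, mitochondrial phosphoenolpyruvate carboxykinase, which consumes oxaloacetate, was 5.72-fold and 8.54-fold higher in luminal cells (adjusted p = 7.31e-05 and 1.46e-05), and Pdha1, a pyruvate dehydrogenase subunit, was 1.63-fold and 1.44-fold higher (adjusted p = 0.00355 and 0.0221). The Pdha1 calls were lost on unscaled TPM (limma adjusted p = 0.376 at 3 and 0.255 at 24 months), and that at 24 months also without basal replicate 1 (0.0644) or luminal replicate 1 (0.121) of that age.

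Aspartate, glutamate and malate genes, which feed and drain oxaloacetate around Got2, were called in 13 of 18 tested (of 19) at each age, 9 higher and 4 lower at 3 months and 8 higher and 5 lower at 24 months. Their median log2 fold changes were 1.23 and 0.94, beside 0.19 and 0.00 over all tested genes, of which 19.0% were called higher and 18.6% lower at 3 months and 15.7% and 19.7% at 24 months. Several related enzymes were called in opposite directions. Glul, which makes glutamine from glutamate, was at 541.6 ± 12.9 CPM in basal and 1491.9 ± 14.4 CPM in luminal cells at 3 months (1.46, adjusted p = 9.93e-09) and differed by 0.92 at 24 months (adjusted p = 1.18e-06). Gpt2, the mitochondrial alanine aminotransferase, was at 20.5 ± 1.59 and 108.5 ± 7.65 CPM at 3 months (2.41, adjusted p = 3.14e-07), and Gpt, the cytosolic one, at 38.5 ± 14.8 and 2.27 ± 2.14 CPM (-4.08, adjusted p = 0.00565).

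Mdh2, the malate dehydrogenase of the cycle, which regenerates oxaloacetate in mitochondria, was at 274.0 ± 34.0 CPM in basal and 159.1 ± 2.56 CPM in luminal cells at 3 months (-0.78, adjusted p = 0.000267), and Mdh1, its cytosolic counterpart, at 58.7 ± 24.5 and 198.8 ± 21.2 CPM (1.76, adjusted p = 1.47e-05). At 24 months these differences were -0.94 (adjusted p = 5.86e-05) and 2.01 (adjusted p = 4.97e-06). Got1, the cytosolic partner of Got2, was at 9, 3.86 and 0 CPM in basal and 31.2, 24.3 and 28.3 CPM in luminal libraries at 3 months (2.70, adjusted p = 0.0274) and at 6.41 ± 1.76 and 51.7 ± 6.37 CPM at 24 months (3.01, adjusted p = 0.0167). The 3-month call of Got1 was lost with only the 2 groups fitted (0.135) and without basal replicate 2 (0.0683) or luminal replicate 1 (0.0591) or 3 (0.0529), and the 24-month call without basal replicate 1 (0.0590) or 3 (0.0595). Slc25a10, the dicarboxylate carrier, which moves malate out of mitochondria, was at 4.29 ± 2.57 and 80.5 ± 8.23 CPM at 3 months (4.24, adjusted p = 7.99e-07). Slc1a1, an aspartate and glutamate importer, was at 3.39 CPM or less in every group by mean and was not called (adjusted p = 0.488 and 0.385). Mdh1, Gpt, Slc25a10 and Pdha1 were singled out after their values had been seen.

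**Figure D4:**
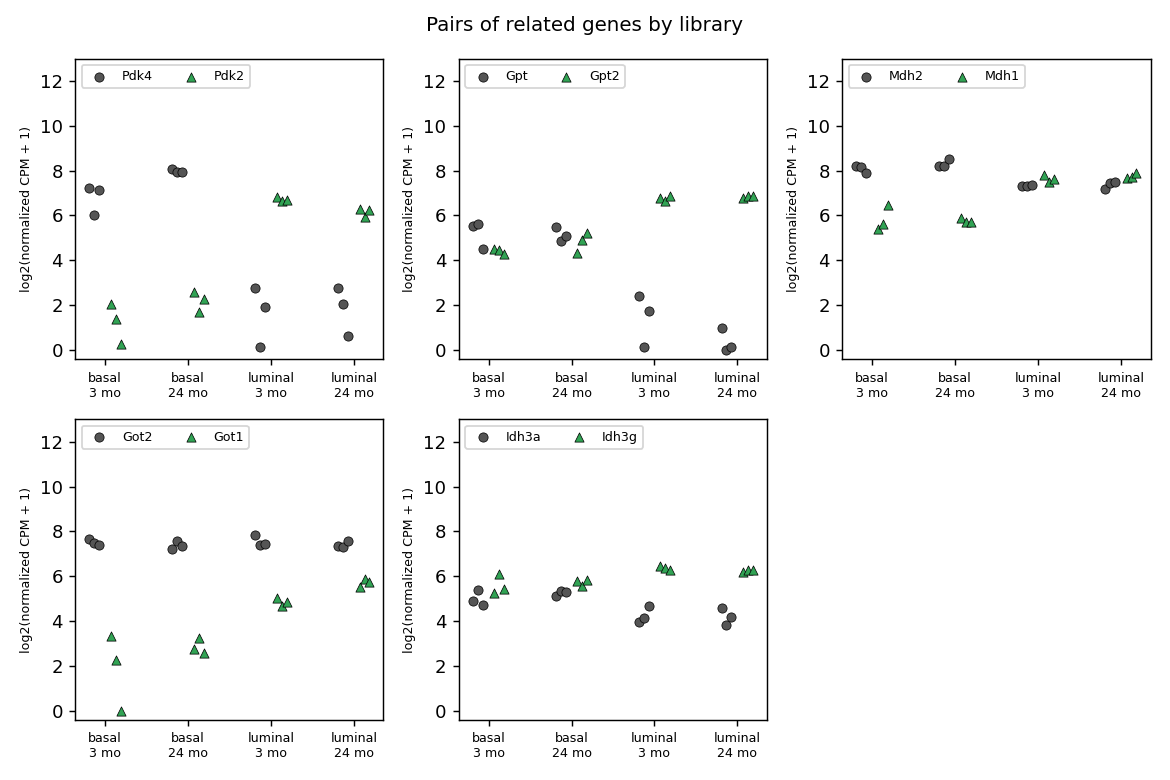
Normalized CPM, as log2(CPM + 1), of 5 pairs of related genes in each library, by cell type and age; circles and triangles are the 2 genes of a pair and each point is 1 library. Pdk4 lies above Pdk2 in every basal and below it in every luminal library, Gpt2 lies above Gpt in every luminal library while the 2 overlap in old basal libraries, Mdh1 is higher in luminal and Mdh2 in basal libraries, Got1 is higher in luminal libraries while the groups overlap for Got2, and Idh3a lies below Idh3g in all 12 libraries.

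Of 4 genes for citrate transport across the plasma membrane, Ank alone passed the filter on low counts, and Slc13a2, Slc13a3 and Slc13a5 were not tested. Ank encodes an exporter of citrate and pyrophosphate. It was at 88.2, 82.0 and 89.3 CPM in basal and 232.0, 288.5 and 438.2 CPM in luminal libraries at 3 months, and at 68.8, 83.7 and 102.2 CPM in basal and 154.8, 149.2 and 193.1 CPM in luminal libraries at 24 months. Luminal libraries were above basal ones at both ages, by 1.89 on the log2 scale at 3 months (3.69-fold, adjusted p = 5.26e-06) and 0.96 at 24 months (1.95-fold, adjusted p = 0.00193).

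With age, Ank fell in luminal cells by 0.95 on the log2 scale (1.93-fold, adjusted p = 0.0328). All 3 libraries at 24 months were below all 3 at 3 months. The call was lost without luminal replicate 2 (0.0623) or 3 (0.157) of 3 months, luminal replicate 1 (0.131) or 2 (0.144) of 24 months or basal replicate 2 (0.0562) of 24 months, and on log2(TPM + 1) (0.131 unscaled, 0.0603 scaled). In basal cells Ank differed by -0.03 between the ages, and the difference of the 2 age responses was -0.92 (adjusted p = 0.212). Summed fibroblast markers were lower in the same comparison, at 170.2 to 391.0 CPM at 3 and 49.7 to 127.6 CPM at 24 months over 8 genes, and summed smooth muscle markers at 82.8 to 131.9 and 13.2 to 67.9 CPM over 7 genes, with Cnn1 at 0 in the old luminal libraries; their part in the fall of Ank was not tested.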

How the data were processed

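RNA of sorted, frozen cells (RNeasy) was made into KAPA Stranded mRNA libraries and sequenced on an Illumina HiSeq, per the labels. The submitters' processing notes name bcl2fastq 2.17, Bowtie2 2.1.0, RSEM 1.2.15 and mm10. No source used here states whether counting used strand. The authors deposited RSEM expected counts and TPM per gene, per the file headers. Expected counts were rounded. Genes were filtered with filterByExpr (minimum count 10, total 15) and scaled by TMM, and 1 edgeR 4.0.16 quasi-likelihood model (R 4.3.3) with 4 group means over 12 libraries tested 5 contrasts, with Benjamini-Hochberg adjustment over 14201 genes and calls at 0.05. SE is the log2 fold change over the root of F. The script was also run on simulated counts with less spread between libraries than these data and no PCR copies, as a check of the code only.

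Alternatives were DESeq2 1.42.0 and its size factors, no filter, a replicate block, only the 2 groups compared, limma 3.58.1 on log2(TPM + 1), each library left out, and fragment-equivalent counts (reads over the reads estimated per fragment). TMM-scaled TPM and the background of genes with at least 10 CPM were added after seeing the data. Fragments were estimated from the median reads of genes seen in 1 library of a group, with at least 8 reads there. Such genes could have reads in at most 3 libraries of other groups. Reads include PCR copies, so limits of 3 fragments cover counting error only.

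The 9 genes and all lists were chosen with earlier results of these data known. The naming rule took the 9 genes, 9 fixed partners, up to 3 called genes per list and contrast by smallest p, and the 2 nearest genes by correlation. Motifs were sought in RefSeq promoters. A few genes this rule picked are not reported here.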

Additional observations from a re-analysis of the deposited data

Results flagged for a closer look

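Of the 9 genes and the genes of the pathway lists, 1 had age responses that differed between the cell types by a test of the difference itself. It was 1 of the 23 tested zinc carriers and metallothioneins, and the 9 genes and the other lists had 0 calls. Among all tested genes 0.817% were called for this difference, so 1 call over all these genes is near the background. Mt1, a metallothionein that binds zinc and copper, was at 1014.2, 958.2 and 919.1 CPM in basal libraries at 3 months and at 1322.4, 1338.0 and 1424.2 CPM at 24 months. In luminal libraries it was at 1529.8, 1718.7 and 1695.6 CPM at 3 months and at 1487.2, 1521.1 and 1535.6 CPM at 24 months. All basal libraries at 24 months were above those at 3 months, while the luminal ages overlapped. Mt1 rose in basal cells (log2 0.50, edgeR adjusted p = 0.0107), and the difference of the age responses, luminal minus basal, was -0.62 (edgeR adjusted p = 0.0312). The call of the difference was lost in 12 of 19 alternative settings, with adjusted p between 2.27e-05 and 0.356 over all of them. The rise in basal cells was lost without basal replicate 1 (0.0606) or 2 (0.0970) of 24 months and on unscaled log2(TPM + 1) (0.217).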

How the results depend on the processing

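The counts of the 9 genes called stayed within 1.5 times under all settings: 4 to 7 in luminal against basal cells at 3 months, 4 to 7 at 24 months, and 0 for each age comparison. Over all genes, counts for age in basal cells (176) were 664 with DESeq2, 104 with unscaled TPM, 316 with fragment-equivalent counts and 73 to 266 without 1 library. For age in luminal cells (235) they were 642 with DESeq2, 548 with fragment-equivalent counts and 124 to 331 without 1 library, while the difference of the age responses (116) had 538 with DESeq2, 72 with TMM-scaled TPM and 54 to 172 without 1 library. The median log2 of all genes moved with DESeq2 size factors from 0 to 0.1278 for the cell types at 24 months, from 0.0949 to 0 for age in basal cells and from -0.1298 to -0.0194 for the difference. The 35 list counts had 693 values under the alternatives, of which 604 stayed within 1.5 times the main count. All 16 ratio means moved by less than 1 SD on recomputing from expected counts.

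Small values changed sign, and the cause was not tested. On unscaled TPM the cell type difference at 3 months was -0.10 for Cs, -0.46 for Got2, -0.34 for Idh3b and -0.33 for Fasn, and at 24 months -0.04 for Cs, -0.16 for Aco1, -0.17 for Got2, -0.21 for Idh3b and -0.06 for Mt1. Unscaled TPM also gave age in luminal cells as 0.08 for Cs, 0.02 for Idh3a and 0.05 for Pcx, and the difference of age responses as 0.07 for Cs, 0.11 for Slc25a1 and 0.29 for Got2. Fasn at 24 months was 0.09 with DESeq2 and with its size factors, 0.03 without a filter and 0.04 with only the 2 groups. Cs with age in luminal cells was 0.00 with DESeq2 and with its size factors and 0.01 without a filter and on fragment-equivalent counts. The difference for Got2 was 0.10 with DESeq2 and with its size factors, 0.07 without a filter, 0.04 with TMM-scaled TPM and 0.11 on fragment-equivalent counts, where Got2 at 3 months was -0.03 and Aco1 with age in basal cells -0.06. Leaving out 1 library gave, for luminal against basal cells, Aco1 -0.33 to 0.35 and Got2 -0.11 to 0.13 at 3 months, and Aco1 -0.09 to 0.23, Got2 -0.05 to 0.18, Idh3b -0.11 to 0.09 and Fasn -0.10 to 0.13 at 24 months. It gave Aco1 with age in basal cells -0.09 to 0.58, and with age in luminal cells Cs -0.06 to 0.05, Idh3a -0.30 to 0.18 and Pcx -0.08 to 0.03. For the difference it gave Aco1 -0.31 to 0.36, Got2 -0.09 to 0.22, Idh2 -0.10 to 0.21 and Slc25a1 -0.35 to 0.05.

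Replicate numbers were not used as pairs, since a correlation of deviations over 0.1 was required in every same-numbered pair. Over 18 such pairs, including pairs across ages, it was -0.0967 to 0.159, with 2 over 0.1. Libraries of different ages pool different mice, so a rule that included such pairs could not decide pairing within an age. Between basal and luminal libraries of 24 months it was 0.0549, 0.158 and 0.159, against -0.149 to 0.0115 for different numbers. At 3 months it was -0.0199, 0.0156 and 0.0518, against -0.061 to 0.0451. The same-numbered values were thus above all the others at 24 months and overlapped them at 3 months. Whether same-numbered libraries of an age came from the same mice was not tested, and the main model treated them as unpaired. With the replicate block the 9 genes had 6, 5, 0, 0 and 0 calls in the 5 comparisons (cell types at 3 and 24 months, age in basal and luminal cells, difference), all genes had 5131, 4900, 194, 273 and 127, and of the named genes Glul (edgeR adjusted p = 0.0569) and Mt2 (0.0575) with age in basal cells lost their calls. Depth limits low genes: Idh1 in basal cells and Got1, Pdk2, Slc1a1 and Gpt in their lower group rest on few fragments, and estimated fragments, not reads, set their precision.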

Other observations

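Zinc, which holds back aconitase in secretory prostate cells, has its own carriers. Of 23 tested genes of 26 for zinc carriers and metallothioneins, luminal cells had 9 called higher and 6 lower at 3 months, and 8 and 6 at 24 months. Of all tested genes with a mean of at least 10 CPM, 25.9% were called higher and 29.9% lower at 3 months, and 23.0% and 31.8% at 24 months (19.0%, 18.6%, 15.7% and 19.7% with no such minimum), so the counts of lower genes are near the background. Slc39a8, a zinc importer, was at 7.44 ± 3.69 CPM in basal and 93.2 ± 23.5 CPM in luminal cells at 3 months (SD, n = 3; log2 3.65, edgeR adjusted p = 1.04e-06) and differed by 4.13 at 24 months (4.59e-07). Slc39a7 of the endoplasmic reticulum and Golgi was higher by 1.71 (edgeR adjusted p = 3.40e-06) and 1.47 (1.66e-05), and Slc39a9 by 2.24 (2.28e-06) and 0.85 (0.00791, but 0.0744 on unscaled TPM by limma). Slc39a1, singled out after its values were seen because it is the importer most often tied to prostate zinc, was lower by edgeR, at 132.0 ± 6.64 and 92.1 ± 18.9 CPM at 3 months (-0.52, adjusted p = 0.0266) and -0.54 at 24 months (0.0225). The Slc39a1 call was lost without basal replicate 1 (0.0654) or 3 (0.0538) or luminal replicate 3 (0.125) at 3 months. At 24 months it was lost without basal replicate 1 (0.0728) or 2 (0.101) or luminal replicate 2 (0.137) or 3 (0.0968), with DESeq2 size factors (0.0809) and with DESeq2 (0.0796). Mt2, a metallothionein, was lower in luminal cells by -0.39 (edgeR adjusted p = 0.00458) and -0.96 (1.82e-06), and Mt1 higher by 0.77 at 3 months (4.50e-06) and by 0.15 at 24 months (0.185, not called). With DESeq2 size factors the 24-month difference of Mt1 was 0.29 (edgeR adjusted p = 0.0162), with DESeq2 it was 0.29 (0.000123), and on unscaled TPM it was -0.06 (0.699). Mt2 rose with age in basal cells (0.42, edgeR adjusted p = 0.0495), as did Glul (0.39, 0.0461), and each call was lost in 18 of 20 alternative settings.

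Of 20 genes that use the acetyl-CoA made by Acly for lipid synthesis, luminal cells had 5 called higher and 5 lower at 3 months, and 7 and 6 at 24 months. The counts at 3 months are near the shares of all genes with at least 10 CPM given above. The stearoyl-CoA desaturases Scd1 and Scd2 were higher by 2.76 and 2.30 on the log2 scale at 3 months (edgeR adjusted p = 2.17e-08 and 2.02e-09), and Acacb, the acetyl-CoA carboxylase of the mitochondrial surface, was at 3.75 ± 0.33 and 88.5 ± 8.16 CPM (4.56, adjusted p = 3.56e-08). Fasn, fatty acid synthase, and Acaca, the cytosolic carboxylase next to Acly, were not called at either age (edgeR adjusted p = 0.501 and 0.880 for Fasn, 0.429 and 0.220 for Acaca). Scd2 fell with age in both cell types, from 102.4 ± 9.64 to 64.9 ± 3.99 CPM in basal (-0.66, edgeR adjusted p = 0.0113) and from 504.0 ± 17.7 to 320.1 ± 32.1 CPM in luminal cells (-0.66, 0.00836), with no overlap between ages. The luminal fall was lost on unscaled log2(TPM + 1) (0.110) and held in the 19 other settings, and the basal fall held in all 20. Of 7 tested genes of 9 in a list of related aconitase, malic and hydroxyglutarate enzymes, 1 was called at each age. This was Acss1, a mitochondrial acetyl-CoA synthetase, higher in luminal cells by 2.44 at 3 months (edgeR adjusted p = 0.000323) and 2.88 at 24 months (9.40e-05). Among all tested genes 19.0% were called higher and 18.6% lower at 3 months, and 15.7% and 19.7% at 24 months. A count of 1 of 7 is no more than these shares.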
